A study of Mus musculus with 18 samples.

Results

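The comparison asks how the liver's response to 12 weeks of a high-fat diet differed between mice that lacked AIM and mice that had it. For every gene, the change from chow to 12 weeks in wild-type (WT) livers was subtracted from the same change in AIM-KO livers. It rests on 12 arrays of the series' 18, with 3 in each of 4 groups: WT (AIM+/+) on normal chow, WT after 12 weeks of high-fat diet, AIM-KO (AIM-/-) on normal chow, and AIM-KO after 12 weeks of high-fat diet. All mice had a C57BL/6 background. The AIM-KO mice lack AIM in the whole body, and their ages and sex are not given. All 14694 genes with a probe set above the dimness limit were tested. The labels call the arrays biological replicates without saying that each came from a separate animal, so the p-values measure the spread between these arrays, and that number of arrays limits the precision.

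AIM, the apoptosis inhibitor of macrophage, is a secreted protein encoded by Cd5l and made by tissue macrophages, in the liver chiefly by Kupffer cells. It circulates bound to immunoglobulin M and is taken up by fat-laden cells, where it dampens lipid storage. A lasting high-fat diet fills hepatocytes with lipid droplets, recruits macrophages and is known to lower growth hormone secretion, on whose pulses male-biased liver genes depend. A difference between 2 diet changes is a harder quantity to measure than either change, because it carries the error of 4 groups.

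Levels below are deposited MAS5 intensities on a linear scale, and changes are on the log2(intensity + 3.3) scale, which understates the change of dim genes. A positive difference means a larger rise or a smaller fall in AIM-KO livers. A gene was called at a limma p-value adjusted by the Benjamini-Hochberg method under 0.05. Pearson correlations of log2 values between arrays of a group ran from 0.958 to 0.98, and median intensities from 15 to 18.1. Liver markers were bright on all 12 arrays, with Alb between 6138.8 and 9877.1 and Apoa1 between 9291.6 and 12550.6. Cd5l read 702.6 to 781.0 on WT chow arrays, 964.6 to 1588.7 on WT arrays at 12 weeks and 4 to 16 on all 6 AIM-KO arrays. Xist, which marks female tissue, lay between 7.8 and 20.5 on the 12 arrays, whereas 4 of 6 arrays at 20 weeks were Xist-high. Those 20 week arrays entered the estimate of the spread and no difference given below. The WT group at 20 weeks was mixed, with Xist at 22.6, 3049.7 and 26.2. Male-biased genes there had median distances from WT chow of -1.85, -3.08 and -1.49. The spread within that group is part of the standard errors of sex-biased genes below and may widen them.

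The diet change differed between genotypes for 1 gene of 14694, which is 0.00681% of the genes tested. That gene was Hsd3b2, and no gene was called with a positive difference, each gene being read by its brightest probe set. At an unadjusted p under 0.05 there were 1386 genes (9.43%), of which 823 (5.6%) had a positive and 563 (3.83%) a negative difference. The next gene in order of p, Commd3, had an adjusted p of 0.063 by limma. The median standard error of the difference was 0.32 and a typical 95% interval reached 0.67 to either side (median), against a standard error of 0.22 for a diet change within 1 genotype.

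Hsd3b2, on chromosome 3, encodes a 3-beta-hydroxysteroid dehydrogenase, one of a cluster of near-identical enzymes that make or reduce steroids. Its intensity was 348.8, 367.5 and 355.9 on the WT chow arrays and 210.4, 265.0 and 316.4 on the WT arrays at 12 weeks. On the AIM-KO chow arrays it was 791.2, 1026.3 and 436.4, and after 12 weeks 86.8, 85.0 and 121.6. The AIM-KO arrays therefore lay above every WT chow array on chow and below all 9 others after the diet. Across all genes, the 3 AIM-KO arrays at 12 weeks lay below the other 9 for 462 genes (3.14%) and above them for 662 (4.51%).

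Hsd3b2 fell by 2.83 ± 0.24 (SE) in AIM-KO livers, with an adjusted p of 6.6e-07 by limma. In WT livers its change was -0.45 ± 0.24 and was not called (adjusted p = 0.32). The difference between these changes was -2.38 ± 0.34, with a 95% interval from -3.09 to -1.67 and an adjusted p of 0.02 by limma. Both diets contributed: the AIM-KO mean was higher on chow by 0.98 (adjusted p = 0.26) and lower at 12 weeks by a log2 difference of -1.4 (adjusted p = 0.035).

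The call for Hsd3b2 held in 15 of 24 alternative settings and the sign in all 24. Without WT 12 weeks replicate 3 or either of AIM-KO 12 weeks replicates 1 and 2 its adjusted p was 0.11, and without WT chow replicate 1, 2 or 3 it was 0.057, 0.08 or 0.088, by limma each time. A single probe set reports the gene, and the array's probes may take signal from its paralogs Hsd3b3 and Hsd3b5, so the assignment to Hsd3b2 is uncertain. Hsd3b3, which was called lower in AIM-KO livers at 12 weeks, had a difference of diet changes of -0.49 ± 0.33 (adjusted p = 0.69).

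**Figure D1:**
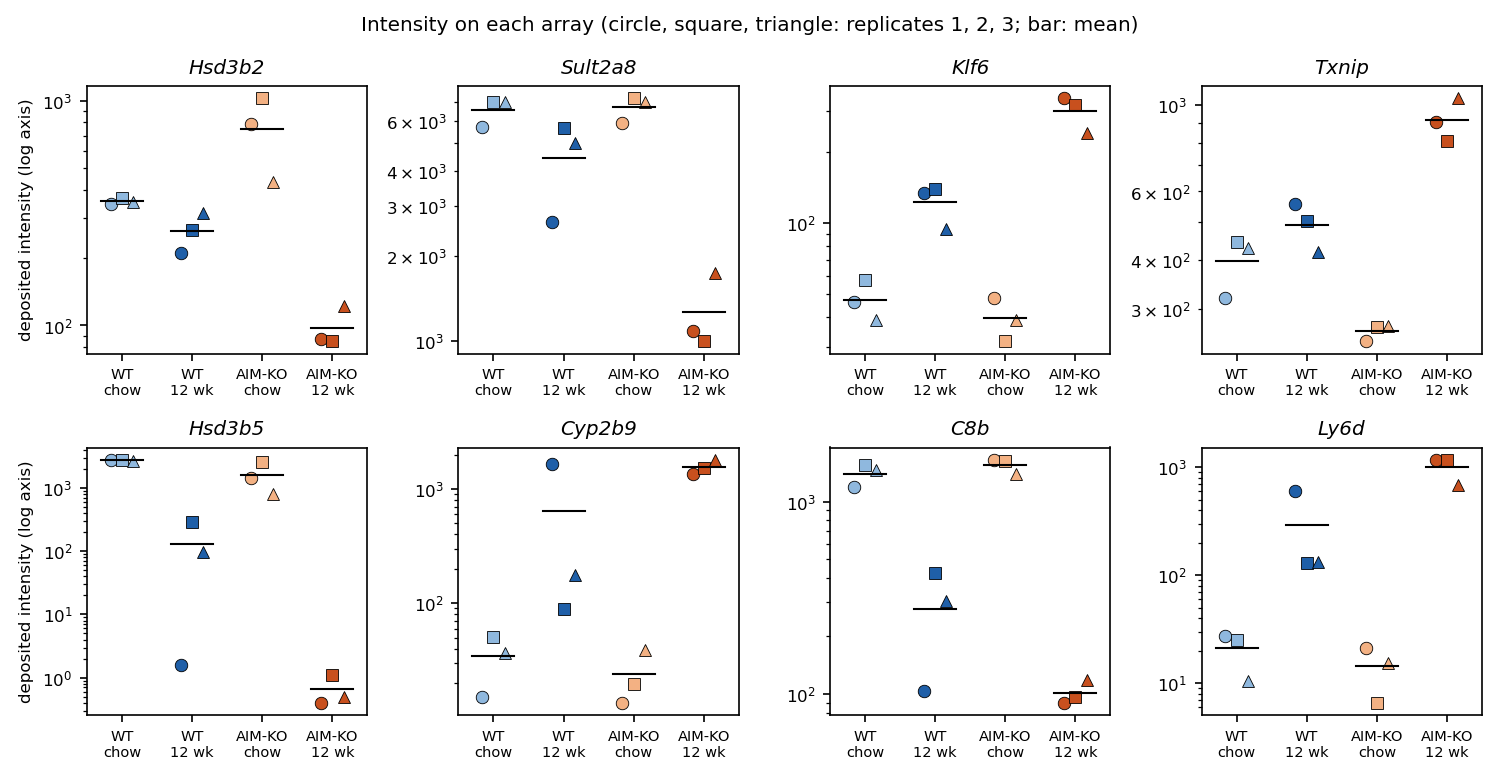
Deposited intensity, on a log axis, of 8 genes on the 12 arrays in the 4 groups; circles, squares and triangles are replicates 1, 2 and 3 and bars are means. Hsd3b2 reads 85.0 to 121.6 on the AIM-KO arrays at 12 weeks and at least 210.4 elsewhere, and for Hsd3b5, Cyp2b9 and C8b the circle among the WT arrays at 12 weeks lies near the AIM-KO arrays.

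More diet changes passed the threshold in AIM-KO than in WT livers. In WT livers 753 genes were called (5.12%; 514 rose, 3.5%, and 239 fell, 1.63%), and in AIM-KO livers 2645 (18%; 1652 rose, 11.2%, and 993 fell, 6.76%). The overlap was 590 genes, all with the same direction, which is 78.4% of the WT calls and 22.3% of the AIM-KO calls. Among the 2055 genes called in AIM-KO livers only, the WT change had the same sign for 1865, and 1359 had a 95% interval of the difference that included 0. Their median change was 0.71 in size in AIM-KO livers and 0.29 in the same direction in WT livers. Just 1 of the 2055, Hsd3b2, was called for the difference. None of the 163 genes called in WT livers only was called for it either.

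To describe stronger and weaker responses without choosing genes by either genotype alone, the 3299 genes (22.5%) whose diet change averaged over both genotypes was called were taken, a choice made after the data were seen. That average does not use the difference between the genotypes. By point estimates 2454 of them (74.4%) changed more in AIM-KO livers, 821 (24.9%) changed less, and 24 had opposite signs. Over all 14694 genes the shares were 41.7% stronger, 25.7% weaker and 32.6% opposite. Choosing genes by a called average removes nearly all opposite signs, so 74.4% and 41.7% are not directly comparable. Among all genes with 1 sign in both genotypes, 6130 were stronger and 3776 weaker. The share of stronger responses was alike for the 1996 rises, which are 13.6% of all genes (75.9% stronger), and the 1303 falls, 8.87% (72.1% stronger). The median change in the average's direction was 0.46 in WT and 0.67 in AIM-KO livers, and the median difference was 0.21. These genes are not independent replicates, since they share the same arrays.

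On single arrays, the mean signed distance of those genes from the WT chow mean was 0.73, 0.53 and 0.51 for WT replicates 1, 2 and 3 at 12 weeks. For the AIM-KO replicates at 12 weeks it was 0.84, 0.84 and 0.74. On chow it ran from -0.03 to 0.05 in WT and from -0.06 to 0.02 in AIM-KO livers. The groups at 12 weeks did not overlap, but WT replicate 1 came within 0.01 of the lowest AIM-KO array. The share of stronger responses was 76.5% without that WT array and ranged from 68.3% to 78.1% as each of the 12 arrays was left out.

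**Figure D2:**
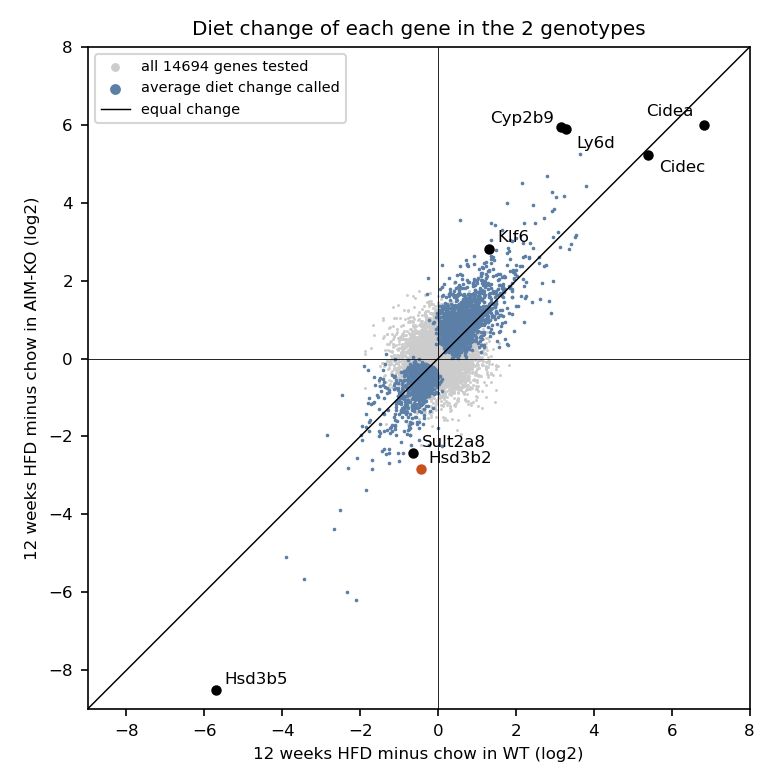
Change from chow to 12 weeks of high-fat diet in AIM-KO livers (y axis, log2) against WT livers (x axis, log2) for 14694 genes in grey and, in blue, the 3299 with a called average change; the line marks equal change. Hsd3b2 (orange) lies at -0.45 and -2.83, and Hsd3b5, Cyp2b9 and Ly6d lie on the side of the larger AIM-KO change, while Cidea and Cidec lie close to the line.

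The strongest responses shared by both genotypes were described next, each with the interval of its difference. Of the 10 largest rises and 10 largest falls called in both, 17 were larger in size in AIM-KO livers. The 95% interval of the difference excluded 0 for 11 of the 20, none of which passed the adjusted threshold, and included 0 for 9. Over all 590 shared genes 490 intervals included 0, and 351 (59.5%) lay within 1 log2 unit on either side of 0, against 50.7% of all genes. For those 351, each interval taken singly lies inside a 2-fold difference in the diet response. The intervals are not adjusted for the number of genes, so some may miss the true value.

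Cidea and Cidec, lipid droplet proteins that fuse small droplets into large ones, had the largest rises averaged over both genotypes. Cidec was 9.7, 7.8 and 6.6 on WT chow and 563.4, 338.1 and 549.9 on WT 12 week arrays, against 12.4, 6.1 and 46.9 and then 716.6, 771.7 and 694.4 in AIM-KO livers. Its changes were 5.40 and 5.23, and the difference of -0.17 ± 0.6 had a 95% interval from -1.44 to 1.1. For Cidea the changes were 6.83 in WT and 6.01 in AIM-KO livers, with a difference of -0.82 ± 1.08 and an interval from -3.08 to 1.45.

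Ly6d and Cyp2b9 rose in both genotypes and had the largest positive differences of the 20. Ly6d, a lipid-anchored surface protein, went from 27.3, 25.4 and 10.6 to 607.5, 131.3 and 132.2 in WT livers. In AIM-KO livers it went from 21.4, 6.6 and 15.4 to 1169.2, 1178.8 and 693.9. Its difference was 2.62 ± 0.73 (adjusted p = 0.31), and the groups at 12 weeks did not overlap. Cyp2b9, a female-biased cytochrome P450, read 1651.4, 89.8 and 176.1 on the WT arrays and 1363, 1516.2 and 1805.8 on the AIM-KO arrays at 12 weeks. Here WT replicate 1 sat among the AIM-KO arrays while the other two lay far below, and the difference was 2.79 ± 0.99 (adjusted p = 0.39).

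Rad51b, a DNA repair gene, and Mmp12, a macrophage elastase, also had intervals above 0, with differences of 1.61 ± 0.45 and 1.88 ± 0.61. Rad51b read 0.5, 6.3 and 9.1 on the AIM-KO chow arrays, near the floor, and its difference was 1.03 with 4 times the added constant and 2.13 with 0.825 in its place. The differences of Lcn2 (0.63 ± 0.57), an iron-binding acute phase protein, and of the transporter Slc22a29 (0.93 ± 0.57) had intervals that included 0. Among the falls, Cyp26a1, which breaks down retinoic acid, was the exception in sign: it fell by 2.84 in WT and by 1.95 in AIM-KO livers, with a difference of 0.89 ± 0.45.

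**Figure D3:**
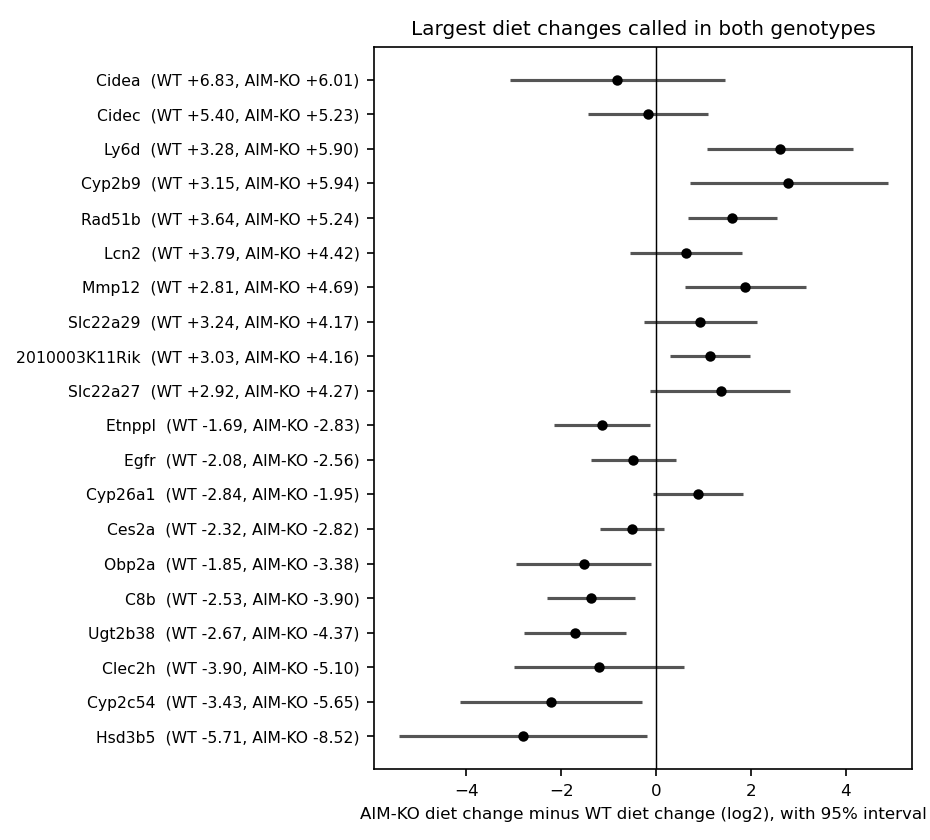
Difference of the 12 week diet change, AIM-KO minus WT, on the log2 scale with its 95% interval for the 10 largest rises (top) and 10 largest falls (bottom) called in both genotypes; the change in each genotype stands beside the gene. Intervals of 9 genes include 0, among them Cidea and Cidec, and the estimates run from -2.81 (Hsd3b5) to 2.79 (Cyp2b9).

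Male-biased liver genes had the largest negative median difference of the 45 gene lists described, at -0.92 over 15 members tested, against 0.05 over all genes. These genes are held up in males by pulsed growth hormone acting through STAT5B. None was called for the difference, and 8 of 15 had a negative difference at an unadjusted p under 0.05, with 0 positive. The diet change was called lower for 7 members in WT and for 11 in AIM-KO livers, and higher for none in either. Over all genes 1.63% were called lower in WT and 6.76% in AIM-KO livers, and 3.5% and 11.2% higher. AIM-KO counts thus exceed WT counts over all genes, and the list counts here and below are to be read beside that. Members named here and below that the naming rule does not give are examples chosen after their values were seen.

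Hsd3b5, another steroid dehydrogenase, fell furthest. It read 2787.3, 2795.7 and 2660.1 on WT chow and 1.6, 293.8 and 97.2 on WT 12 week arrays. In AIM-KO livers it read 1448.8, 2571.8 and 807.6 on chow and 0.4, 1.1 and 0.5 at 12 weeks. The AIM-KO arrays thus sat at the array's floor, WT replicate 1 just above it, and the other two WT arrays well above. The changes were -5.71 and -8.52 and the difference -2.81 ± 1.25 (adjusted p = 0.5). Because the AIM-KO readings at 12 weeks lie below the added constant of 3.3, the size of the Hsd3b5 difference depends on it and was -1.6 with 4 times that constant and -3.89 with 0.825 in its place.

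In other members too, WT replicate 1 lay near the AIM-KO arrays. C8b, a component of the complement pore, was 103.4, 424.3 and 303.5 on the WT and 89.9, 96.4 and 117.9 on the AIM-KO arrays at 12 weeks, and its difference was -1.37 ± 0.44. Slco1a1, an organic anion transporter, was 61.5, 1663.3 and 1322.8 on WT and 41.8, 15.9 and 20.5 on AIM-KO arrays, with a difference of -4.10 ± 1.37. Cyp7b1, the oxysterol hydroxylase, had a difference of -1.43 ± 0.36 and Ugt2b38, a glucuronosyltransferase, of -1.71 ± 0.51. Elovl3, a fatty acid elongase that is also on the list, fell by 1.38 in WT and 1.42 in AIM-KO livers.

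WT 12 weeks replicate 1 stood apart from the other WT arrays here. It was the lowest of the 3 WT arrays for 13 of the 15 male-biased genes (86.7%), against 30.7% of all genes. The list's median distance from WT chow was -1.54, -0.43 and -0.76 on WT replicates 1, 2 and 3, and -1.47, -1.59 and -1.6 on the AIM-KO arrays at 12 weeks. One WT array thus stood at the AIM-KO level. Without it 23 genes were called for the difference, 11 positive and 12 negative, in place of 1. They included Hsd3b5 (-4.52, adjusted p = 0.0013), Sult2a8 (-2.13, 0.0013), C8b (-1.96, 0.0013), Hsd3b2 (-2.53, 0.004), Cyp2b9 (4.02, 0.0075) and Ly6d (3.34, 0.029), all by limma. This array was singled out after its values were seen. For 17 of the 23 genes it lay nearer to the AIM-KO arrays than to the other WT arrays (57.1% of all genes). Its removal enlarges those differences by construction, so these calls are no separate evidence of a difference. Of the 24 alternative settings, 9 gave 0 calls and 8 gave 1, and 23 was the highest count. Why that array differed was not tested.

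Female-biased genes did not mirror this evenly. Their median difference was 0.32 over 14 members, 2 with a positive difference at an unadjusted p under 0.05, and across settings it ran from -0.04 to 0.58. Cyp2b9 had the largest difference, whereas Cyp17a1, a steroid hydroxylase, rose by 3.14 in WT and 2.86 in AIM-KO livers. In the growth hormone axis the median difference was -0.05. The receptor Ghr was lower after the diet in AIM-KO livers by a log2 change of -0.61 (adjusted p = 0.00098), against -0.19 in WT (adjusted p = 0.39), with a difference of -0.42 ± 0.16 (adjusted p = 0.42).

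More enzymes of hepatocytes were called lower in AIM-KO than in WT livers, as were more of all genes (6.76% against 1.63%). Of 19 genes of the urea cycle and glutamine handling, which turn ammonia into urea, 13 fell in AIM-KO and 1 in WT livers. Their median difference was -0.35 (-0.21 after quantile normalization), 17 of 19 differences were negative, and 9 of them had an unadjusted p under 0.05. Over all 14694 genes 6527 differences were negative, and 3.83% of the genes were negative at that p. Cps1, which commits ammonia to the cycle, changed by -0.44 in WT (adjusted p = 0.067) and fell by 0.85 in AIM-KO livers (0.00027). Otc changed by -0.32 (0.11) and fell by 0.67 (0.00041), and Slc38a3, the glutamine transporter, had a difference of -0.65 ± 0.18 (adjusted p = 0.31). Glul, glutamine synthetase, rose in both, by 0.99 and 0.82.

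Conjugation enzymes and carboxylesterases, which make drugs and steroids soluble, had a median difference of -0.22, with 18 of 29 falling in AIM-KO and 7 in WT livers. Over all genes 6.76% were called lower in AIM-KO and 1.63% in WT livers. The AIM-KO arrays at 12 weeks lay below the other 9 for 10 of the 29, against 3.14% of all genes. Sult2a8, a liver sulfotransferase and the member with the smallest p, read 2642.1, 5634.1 and 4987.7 on the WT and 1083.4, 999.0 and 1736.0 on the AIM-KO arrays at 12 weeks. On chow the ranges overlapped, from 5703.6 to 7010.5 in WT and from 5907.0 to 7207.0 in AIM-KO livers. It fell by 2.43 in AIM-KO livers and changed by -0.64 in WT (adjusted p = 0.12), with a difference of -1.79 ± 0.33 (adjusted p = 0.12).

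Of the hepatocyte markers, 10 of 18 fell in AIM-KO and 1 in WT livers (6.76% and 1.63% of all genes), with a median difference of -0.2. Their summed intensity was 86140 to 104306 in WT and 79471 to 86357 in AIM-KO livers at 12 weeks, and 102348 to 122067 and 109941 to 116566 on chow, with no marker at 0. The median differences of hepatocyte markers, apolipoproteins, coagulation factors, complement and respiratory chain subunits were -0.2, -0.21, -0.17, -0.17 and -0.16, and after quantile normalization -0.02, 0, -0.02, -0.05 and -0.04. In whole liver, fewer cells of a type and less RNA per cell cannot be told apart.

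**Figure D4:**
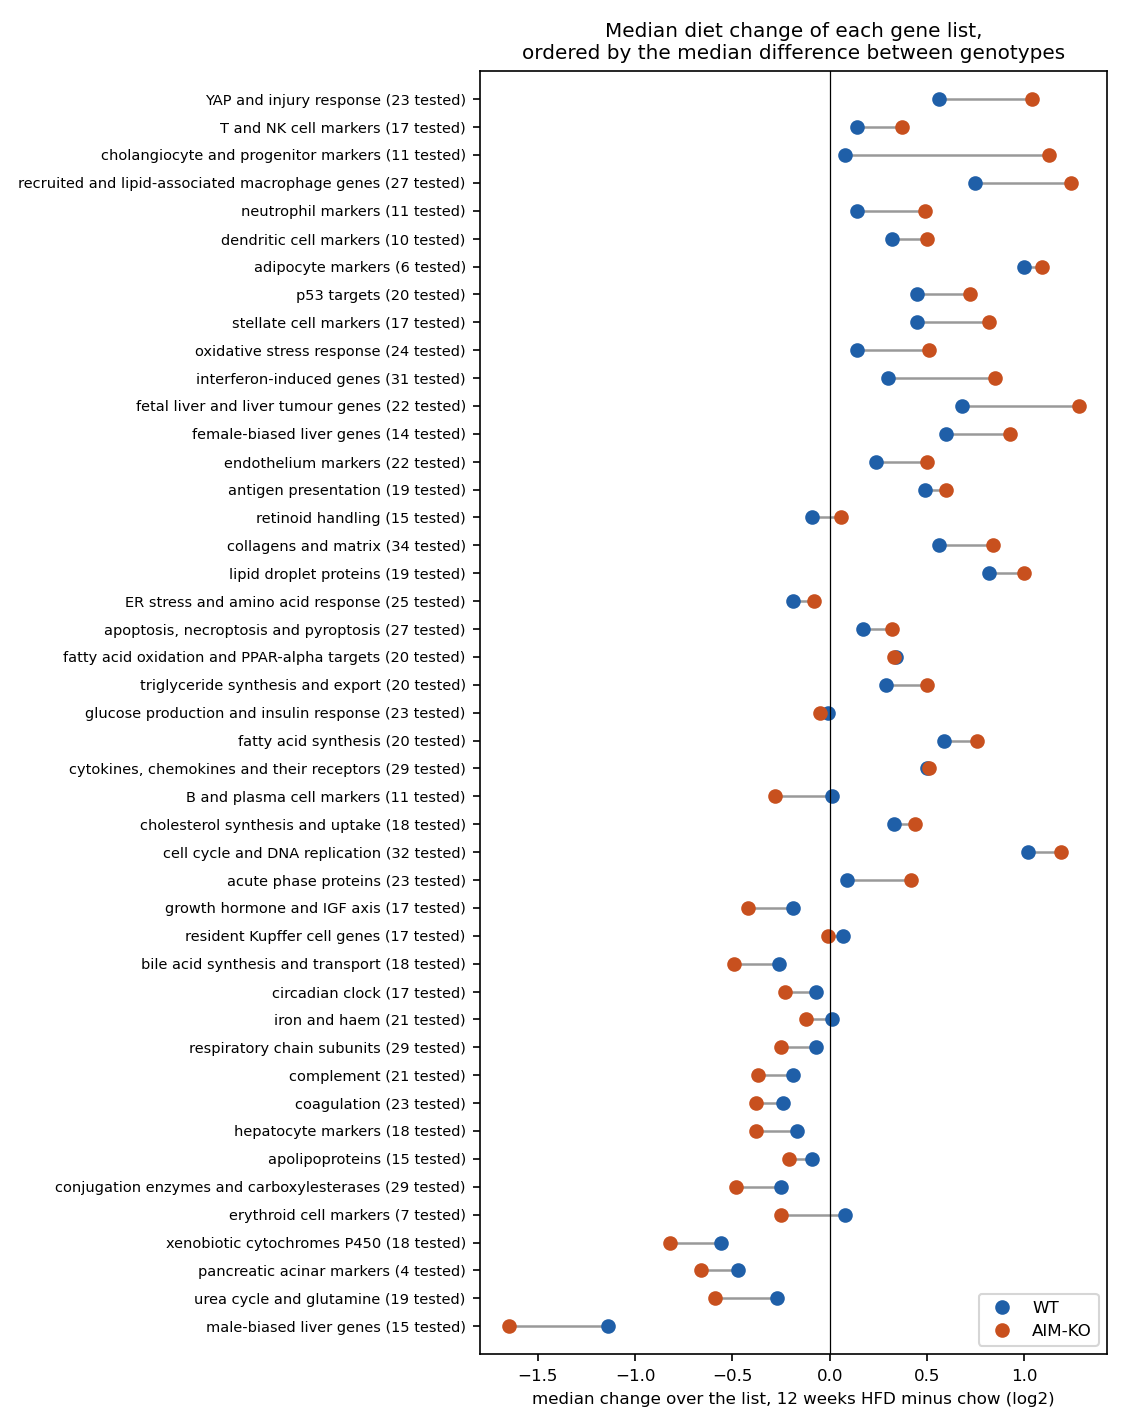
Median change from chow to 12 weeks of high-fat diet (log2, x axis) over each of 45 gene lists in WT (blue) and AIM-KO (orange) livers, with the number of members tested, ordered by the median of the members' differences. The AIM-KO median is the larger in size, with the same sign, in 38 of 45 lists, and male-biased liver genes lie furthest to the left in both genotypes.

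The lists of recruited macrophages, interferon-induced genes and the injury response had positive median differences. The 27 genes of recruited and lipid-associated macrophages, cells that enter the fatty liver from blood, had median changes of 0.75 in WT and 1.24 in AIM-KO livers and a median difference of 0.44. In WT livers 12 rose and in AIM-KO livers 21, against 3.5% and 11.2% of all genes. Of 27 differences 24 were positive, 5 at an unadjusted p under 0.05, against 55.6% and 5.6% over all genes. Mmp13, a collagenase, rose by 2.16 and 4.52, and Cd9, a tetraspanin of lipid-associated macrophages, changed by 0.11 in WT (adjusted p = 0.85) and rose by 1.32 in AIM-KO livers. Ccr2, the receptor that brings monocytes in, rose by 1.90 and 1.95. The summed intensity of the list was 20801 to 26494 in WT and 25347 to 28057 in AIM-KO livers at 12 weeks, and those ranges overlapped.

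The 17 genes of resident Kupffer cells, the cells that make AIM, had a median difference of -0.07, with 8 positive, 9 negative and 0 at an unadjusted p under 0.05. Cd5l itself, absent in the knockout, has no diet response to compare there, but its -0.54 is 1 of the 9 negative differences and enters the median. Clec4f, a receptor that defines Kupffer cells, had a difference of 0.38 ± 0.25 and Timd4, which takes up dying cells, of -0.74 ± 0.52. The list's summed intensity at 12 weeks was 7685 to 8627 in WT and 6105 to 7452 in AIM-KO livers, and Cd5l is 1 of the genes summed.

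Interferon-induced genes, an antiviral programme, had 27 of 31 positive differences with a median of 0.34, against 55.6% positive over all genes. In WT livers 5 rose and in AIM-KO livers 17, against 3.5% and 11.2% of all genes. For 15 of 31 the AIM-KO arrays at 12 weeks lay above the other 9, against 4.51% of all genes. Ifit3 read 127.7, 83.6 and 79.6 on the WT and 187.6, 207.7 and 192.4 on the AIM-KO arrays at 12 weeks, against 64.1 to 104.0 on all 6 chow arrays. It did not pass in WT (-0.02, adjusted p = 0.97), rose by 1.18 in AIM-KO livers, and had a difference of 1.21 ± 0.26 (adjusted p = 0.21). Usp18, which restrains interferon signalling, changed by 0.12 in WT (adjusted p = 0.81) and rose by 1.26 in AIM-KO livers. Gbp3 and Ifit2 had differences of 0.24 each. Without WT 12 weeks replicate 1, the highest of the WT arrays for 22 of the 31 (71%, against 33.7% of all genes), the median difference was 0.53.

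The list of YAP targets and injury response genes, transcripts switched on when hepatocytes are stretched or damaged, had the largest positive median difference of all 45 lists at 0.63. Of 23 members 2 rose in WT and 11 in AIM-KO livers, against 3.5% and 11.2% of all genes. Klf6, an injury-induced transcription factor, was 46.3, 57.4 and 38.9 on WT chow and 134.2, 140.3 and 94.8 on WT 12 week arrays. In AIM-KO livers it was 48.3, 31.6 and 39.1 and then 338.8, 316.1 and 242.0, above every other array. It rose by 1.31 and 2.82, and the difference was 1.51 ± 0.32 (adjusted p = 0.2). Tubb2b, a tubulin of injured hepatocytes and cholangiocytes, had a difference of 2.99 ± 1.08 and Axl, a receptor kinase, of 0.76 ± 0.3, whereas Ankrd1 and Egr1 had negative differences of -0.64 and -0.36.

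Fetal liver and tumour-associated genes, oxidative stress genes, p53 targets, stellate cell markers and endothelium markers had median differences of 0.33, 0.35, 0.36, 0.35 and 0.3. Golm1, a Golgi protein raised in liver tumours, changed by -0.26 in WT (adjusted p = 0.58) and rose by 0.99 in AIM-KO livers. Among p53 targets Mdm2, which degrades p53, changed by 0.13 (adjusted p = 0.76) and rose by 1.16, with a difference of 1.03 ± 0.25 (adjusted p = 0.27). Its other probe sets gave 0.36 ± 0.38 and 0.28 ± 0.82. AIM-KO minus WT was -0.73 on chow and 0.3 at 12 weeks, neither called. At 12 weeks Mdm2 read 160.6, 111.2 and 120.9 on WT and 162.1, 167.3 and 150.4 on AIM-KO arrays, which overlap. Cygb, a globin of stellate cells, changed by 0.08 (adjusted p = 0.91) and rose by 1.23. The stellate markers' summed intensity at 12 weeks was 4039 to 5247 in WT and 4502 to 5133 in AIM-KO livers, and the endothelium markers' 2604 to 3026 and 3277 to 3497. None of the members was called for the difference.

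Lists of lipid handling had median differences near 0. Of 19 lipid droplet proteins 9 rose in WT and 12 in AIM-KO livers, with a median difference of 0.13. Plin2, the main droplet coat protein, rose by 1.09 and 1.24, while G0s2, which blocks the triglyceride lipase, rose by 2.26 and 1.61. Fitm1, which helps droplets form, rose by 1.05 in WT and changed by 0.30 in AIM-KO livers (adjusted p = 0.42). Its difference of -0.74 ± 0.32 was not called (limma adjusted p = 0.49) and ran from -1.1 to -0.39 across settings. The AIM-KO chow arrays were spread, at 210.4, 350.8 and 567.1, against 252.8 to 286.1 on WT chow. Median differences were 0.04 for fatty acid synthesis, 0.05 for triglyceride synthesis and export, -0.02 for cholesterol synthesis and 0.06 for fatty acid oxidation. Across the 24 settings these ran from -0.21 to 0.25, -0.06 to 0.12, -0.25 to 0.25 and -0.05 to 0.22, in that order. For lipid droplet proteins the range was -0.04 to 0.25. Medians near 0 therefore do not show that the responses were equal. Fasn, the synthase that AIM is known to bind, changed by 1.11 (adjusted p = 0.078) and 1.14 (adjusted p = 0.031).

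Cell cycle genes rose in both genotypes, 12 of 32 in WT and 15 in AIM-KO livers, with a median difference of -0.03. Mki67, a proliferation marker, rose by 2.66 and 1.93, and Mcm2, a subunit of the replicative helicase, by 1.91 and 1.57. This median was 0.3 without WT 12 weeks replicate 1, the highest of the WT arrays for 27 of the 32 (84.4%, against 33.7% of all genes).

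**Figure D5:**
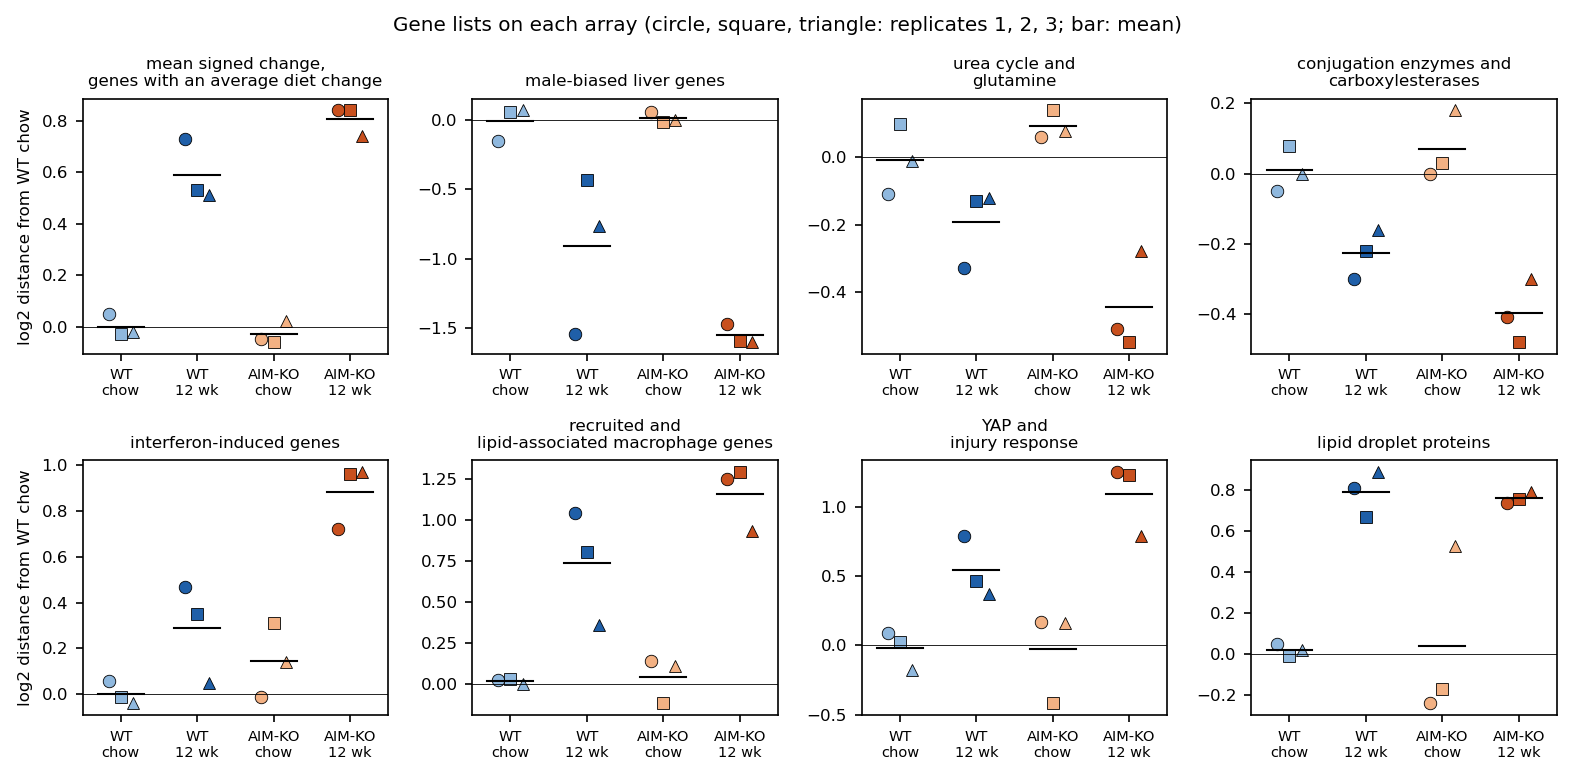
Log2 distance from the WT chow mean on each of the 12 arrays: the mean signed change of the 3299 genes with a called average diet change (first panel) and the median over 7 gene lists; circles, squares and triangles are replicates 1, 2 and 3 and bars are means. WT 12 weeks replicate 1 (circle) stands at -1.54 for male-biased genes, among the AIM-KO arrays, and lipid droplet proteins are as high in WT as in AIM-KO livers.

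Opposite changes cancel in the average over both genotypes, so the 24 genes with opposite signs among those with a called average change are no measure of how common such responses were. Of the 24, 22 had a WT change against the AIM-KO direction and 2, Fbxl20 and Slc39a4, the reverse. No gene was called in both genotypes with opposite directions. Slc39a4, a zinc transporter, fell from 388.1, 432.6 and 451.2 to 269.6, 130.5 and 129.6 in WT livers, a change of -1.33, and read 198.4, 284.8 and 219.5 and then 266.9, 242.0 and 250.8 in AIM-KO livers, a change of 0.13 (adjusted p = 0.81). Fbxl20, a ubiquitin ligase subunit, fell by 0.64 in WT and changed by 0.04 in AIM-KO livers (adjusted p = 0.9). Their differences were 1.46 ± 0.37 and 0.68 ± 0.18, with adjusted p of 0.29 and 0.3 by limma.

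The genes with the smallest p after Hsd3b2, none of which passed the adjusted threshold for the difference, were chosen after their values were seen. Txnip, a thioredoxin inhibitor induced by glucose, was 320.1, 446.7 and 429.2 on WT chow and 558.2, 502.9 and 419.1 on WT 12 week arrays, against 248.3, 269.8 and 272.1 and then 900.7, 809.5 and 1039.4 in AIM-KO livers. The AIM-KO arrays were the lowest of the 12 on chow and the highest after the diet. It changed by 0.31 in WT (adjusted p = 0.41) and rose by 1.78 in AIM-KO livers, with a difference of 1.47 ± 0.27 (adjusted p = 0.12). App, the amyloid precursor protein, had a difference of 0.73 ± 0.14 (adjusted p = 0.12), and Vldlr, a lipoprotein receptor, of 1.17 ± 0.24 (adjusted p = 0.17). Vldlr rose in both genotypes, by 1.42 and 2.60, and its other probe sets gave differences from 0.59 to 3. The probe set at 3 ± 0.42 had an unadjusted p of 8.7e-07 by limma, below the 1.1e-06 of Hsd3b2 among probe sets. It was dimmer (mean log2 4.65 against 7.01) and did not stand for the gene. Which gene ranks first therefore depends on the probe set used.

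A few differences arose on chow rather than at 12 weeks. Papss1, which makes the sulfate donor for sulfotransferases, was 171.0, 136.4 and 159.7 on WT chow and 47.9, 60.5 and 65.7 on AIM-KO chow arrays, and was called lower there (-1.38, adjusted p = 5.1e-05). At 12 weeks it read 170.5, 160.3 and 155.1 in WT and 141.0, 114.2 and 118.8 in AIM-KO livers, and the difference between genotypes was -0.37 (adjusted p = 0.43). It rose by 1.07 in AIM-KO livers and changed by 0.06 in WT, a difference of 1.01 ± 0.2 (adjusted p = 0.17).

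The genotypes themselves differed in 4 genes on chow (0.0272%) and 11 at 12 weeks (0.0749%). On chow Asic5 was higher (1 gene, 0.00681%) and Cd5l, Papss1 and Selenbp1 were lower (0.0204%) in AIM-KO livers, and all 4 lie on chromosome 3, which holds 727 of the genes tested (4.95%). At 12 weeks Asic5, Cybb, Ifi207, Ifit3, Jpt1 and Klf6 were higher (0.0408%) and 1700066M21Rik, Cd5l, Hsd3b2, Hsd3b3 and Sult2a8 lower (0.034%), 4 of the 11 on chromosome 3. A gene that passed on 1 diet and not on the other is not thereby shown to respond differently. Of these, Hsd3b2 was the one whose diet changes differed by the test. For Asic5, an ion channel subunit, the difference of diet changes was -0.70 ± 0.31 (adjusted p = 0.5), and for Selenbp1, a selenium-binding protein, 0.42 ± 0.14 (adjusted p = 0.37).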

How the data were processed

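Liver RNA from 18 samples was hybridised, 1 sample to each Affymetrix Mouse Genome array (version 2.0), with biotin-labelled cRNA made, per the labels' protocols, from 100 ng. The submitters' processing notes name MAS5 for the deposited intensity values, which are linear; no version is named there. The 2% trimmed mean was 100 on each array, and no normalization was added. MAS5 scales each array to 1 target, so changes are relative to the array's total.

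Of 45101 probe sets, 64 were dropped as controls; the platform annotation gave 1 gene for 34945, several for 932 and none for 9160. Symbols of 34741 were updated by entrez id with a table of assembly GRCm38.p6, and chromosomes come from that table. Of the probe sets with several genes or none, 5969 passed the filter and 0 were called when tested. Values were transformed to log2(intensity + 3.3), 3.3 being the 20th percentile of all values. Probe sets brighter than the 40th percentile on 3 or more arrays were kept, 26674 in all, and the one with the highest mean log2 value stood for its gene.

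limma 3.58.1 in R 4.3.3 fitted 6 group means on all 18 arrays, with variances moderated along a trend on intensity (18.2 degrees of freedom). The difference of diet changes was a contrast of 4 group means. Tests were 2-sided, adjusted by Benjamini-Hochberg over 14694 genes, and ± gives the standard error. The script was tested on simulated data.

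The 45 gene lists (934 distinct genes, 806 tested), the contrast and the naming rule were chosen with earlier results of these data known. The rule names Cd5l, called genes, genes of counts of 5 or fewer, each list's member with the smallest p, and the 10 largest rises and 10 largest falls called in both genotypes. Lists are described by counts and medians without a test of their own.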

Additional observations from a re-analysis of the deposited data

Results flagged for a closer look

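Among the genes followed by name, 4 were flagged. Either every AIM-KO array moved one way with the diet and every WT array the other, or the test of the difference passed. Commd3, Gmeb1 and Bahd1 were followed because of their small p. The share of all genes with such a pattern is not given here, so the number flagged is no measure of how common it was. Hsd3b2 had a difference of -2.38 and passed the test of the difference (limma adjusted p = 0.02). For the other three, every array at 12 weeks lay on opposite sides of its chow arrays in the 2 genotypes, but the test of the difference did not pass. Commd3, a subunit of the complex that returns receptors from endosomes, was 635.7, 603.4 and 547.0 on WT chow and 844.4, 909.3 and 942.6 on WT 12 week arrays, against 828.8, 751.2 and 900.5 and then 673.8, 743.6 and 696.8 in AIM-KO livers. Its difference was -0.82 (limma adjusted p = 0.063), and its second probe set gave -0.69. Gmeb1, a DNA-binding modulator of glucocorticoid responses, had a difference of 1.35 (limma adjusted p = 0.21), with 1 of its 5 other probe sets negative. Bahd1, a heterochromatin protein, had a difference of 1.02 (limma adjusted p = 0.27).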

How the results depend on the processing

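The count of 1 called gene was unsteady. It was 0 without the variance trend, with the 12 arrays alone and with a minimum fold of 1.5, and 2, both lower (Hsd3b2 and Mup10), with the replicate number as a block. Array weights gave 19 (14 higher, 5 lower). Leaving out 1 array in turn gave 0 to 23 calls, 0 to 11 of them higher and 0 to 12 lower. Over 24 alternatives the adjusted p of Hsd3b2 ran from 0.00015 to 0.34. The labels do not say whether replicate numbers pair the arrays. Residuals of same-numbered arrays correlated at -0.01 to 0.09 and others at -0.07 to 0.04. Residuals were taken within groups of 3, which ties these 2 sets to opposite signs on average, so the values do not settle whether arrays were paired. The median difference of 0.21 over genes with a called average diet change became 0.48 with the minimum fold, which takes larger changes by construction. Of 105 genes followed, 103 kept their sign: Cidec (-0.17) turned to 0.06 with 4 times the pseudocount, 0.32 with array weights and 0.51 without AIM-KO chow replicate 3 (-0.7 to 0.51 over single arrays left out), and Ighm (1.08) to -0.14 with the mean of its probe sets, for which the cause was not tested. Of 45 list medians 28 kept their sign. The ratio of actin 3' to 5' signal, which rises as RNA degrades, was 2.52 to 3.79 on WT and 2.5 to 3.06 on AIM-KO arrays at 12 weeks; with it as a covariate 1 gene was called.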
